A study of Mus musculus with 6 samples.

Results

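Selectins are adhesion receptors that slow leukocytes on the vessel wall by binding a fucosylated and sialylated sugar cap, sialyl Lewis X. The cap is assembled in the Golgi on O-glycans of mucin-like proteins, by enzymes that extend or branch the sugar chain, add galactose, sialic acid and fucose, and in some vessels add sulfate. In the high endothelial venules of lymph nodes the sulfated cap is displayed for L-selectin on lymphocytes, whereas in the thymus P-selectin on the endothelium is known to bind its ligand on incoming progenitors. The 10 enzymes described here are the ones best known for building this cap. They are the sulfotransferases Chst1, Chst2 and Chst4, the fucosyltransferases Fut4 and Fut7, the branching and extension enzymes Gcnt1, B3gnt3 and B4galt1, and the sialyltransferases St3gal4 and St3gal6. They were taken by gene name, from a list drawn up with earlier results of these data known. Each had a row in the files, which made 10 of 24457 genes on chromosomes. Gene positions are on mm9, the build of the files.

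RNA was sequenced from thymic endothelial cells (ECs) of female wild-type C57BL/6 mice aged 4 to 6 weeks. ECs that were CD31+ and lacked CD45 and the epithelial marker EpCAM were divided by antibody staining for Ly6C and P-selectin (Selp). Type I ECs were Ly6c+ Selp-, type II ECs were Ly6c+ Selp+ and type III ECs were Ly6c- Selp+, with 2 libraries each and 6 in all. The number of mice behind a library is not given in the sources used here, and the labels do not say that the 2 libraries of a subset came from separate mice, so every p-value measures only the spread between these samples, which may be technical.

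Levels are FPKM, fragments per gene corrected for transcript length and library size. They were still shifted between samples. Summed over genes they came to between 221458 and 300932. The factors that bring the samples to a common median ratio ran from 0.8491 in replicate 2 to 1.188 in replicate 1 of type I ECs. Small differences between samples are to be read with this in mind. The files give no counts. If the interval that accompanies each FPKM holds counting error only, the libraries held between 1452476 and 2423171 fragments assigned to genes, and 3 fragments corresponded to a median of 0.356 to 0.602 FPKM. The endothelial marker Pecam1 was at 496 to 867 FPKM and Cdh5 at 414 to 632 FPKM in every sample. Selp was at 7.87 and 5.2 FPKM in type I, 313 and 416 in type II, and 526 and 657 in type III ECs, and Ly6c1 at 1010 and 692, 522 and 351, and 99.6 and 59.7 FPKM, so the sort genes followed their labels, with residual Ly6c1 RNA in type III ECs. Summed FPKM of 22 T cell, myeloid and B cell markers differed between libraries, at 348 and 65.8 in type I, 168 and 90.0 in type II, and 609 and 176 in type III ECs. These are bulk samples, in which fewer cells of a type and less RNA per cell cannot be told apart.

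Averaged over the 6 samples, the 10 enzymes spanned a wide range. The highest was B3gnt3, at 57.8 FPKM, followed by St3gal4 at 40.5, St3gal6 at 26.7, B4galt1 at 17.1, Chst1 at 12.2 and Chst2 at 10.5 FPKM. Fut4 and Gcnt1 were low, at 2.83 and 2.41 FPKM, and Chst4 and Fut7 were at or close to 0. The subset means ran from type I through type II up to type III ECs for 6 enzymes. Fut7 was among these, although it was listed at 0 in 4 samples. For Chst2, Fut4 and Gcnt1 type II ECs had the lowest mean and type III ECs the highest. The share of all genes with either order was not counted, and the FPKM were shifted between samples. Of the neighbours in these orders only type I and type III ECs for Gcnt1 passed the test given below, and no other neighbouring pair could be separated from the spread between samples. In each library B3gnt3, St3gal4 and St3gal6 together with B4galt1 made up most of the FPKM summed over the enzymes, which was 150 and 113 in type I, 165 and 158 in type II, and 222 and 214 in type III ECs.

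**Figure D1:**
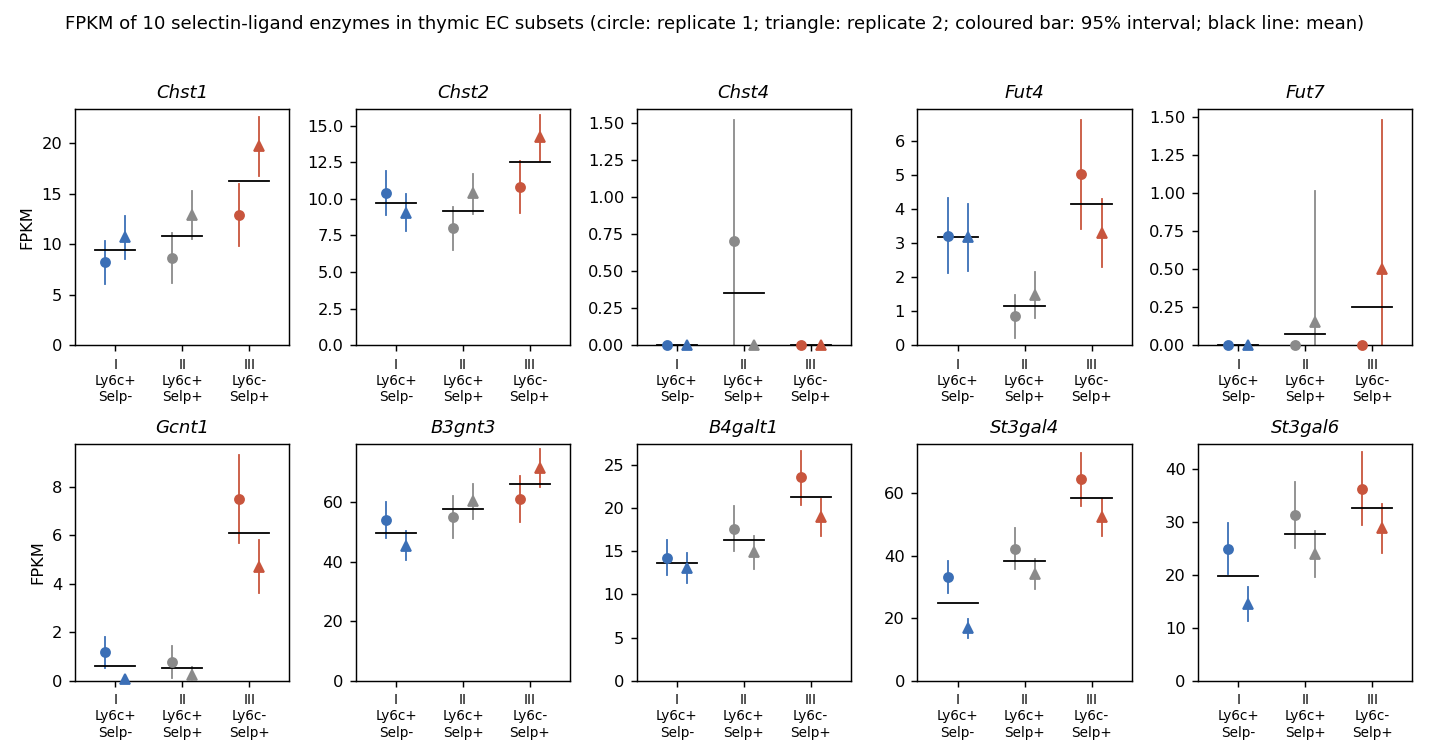
FPKM of each of the 10 enzymes (y axis, its own scale in each panel) in type I, II and III ECs (x axis), with a circle for replicate 1, a triangle for replicate 2, the deposited 95% interval as a coloured bar and the mean of the 2 samples as a black line. Gcnt1 was at 7.49 and 4.7 FPKM in type III ECs and at 1.18 or less in the other 4 samples, and Chst4 and Fut7 stayed below 1 FPKM in every sample.

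The stretches around the transcription start of 4 of the enzymes are shown to set the 2 with the largest differences between type III and type I ECs, Gcnt1 and St3gal4, beside the 2 that were hardly detected, Chst4 and Fut7. Each is the RefSeq window of 300 bases, 250 before and 50 after the start, on GRCm38.p6, a later build than the mm9 of the files, written 5′ to 3′ on the strand of the gene, with the 2 letters of each CpG in capitals. Gcnt1 had 3 windows and Fut7 had 2, and the one with the most CpG is given. The files do not say which start was used in these cells.
Gcnt1 (chr19:17356618-17356917, minus strand): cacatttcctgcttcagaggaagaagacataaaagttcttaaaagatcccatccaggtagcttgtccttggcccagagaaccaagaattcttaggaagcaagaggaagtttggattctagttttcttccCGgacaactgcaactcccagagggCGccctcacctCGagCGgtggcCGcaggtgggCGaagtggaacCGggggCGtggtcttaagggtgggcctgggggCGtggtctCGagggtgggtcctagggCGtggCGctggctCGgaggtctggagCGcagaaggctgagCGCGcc
St3gal4 (chr9:35116815-35117114, minus strand): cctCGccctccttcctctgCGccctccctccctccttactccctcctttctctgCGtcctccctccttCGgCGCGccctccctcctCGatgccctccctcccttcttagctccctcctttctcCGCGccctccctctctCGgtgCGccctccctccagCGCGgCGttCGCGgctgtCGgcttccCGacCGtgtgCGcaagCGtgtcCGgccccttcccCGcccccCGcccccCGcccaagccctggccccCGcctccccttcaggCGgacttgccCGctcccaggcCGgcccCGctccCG
Chst4 (chr8:110039285-110039584, minus strand): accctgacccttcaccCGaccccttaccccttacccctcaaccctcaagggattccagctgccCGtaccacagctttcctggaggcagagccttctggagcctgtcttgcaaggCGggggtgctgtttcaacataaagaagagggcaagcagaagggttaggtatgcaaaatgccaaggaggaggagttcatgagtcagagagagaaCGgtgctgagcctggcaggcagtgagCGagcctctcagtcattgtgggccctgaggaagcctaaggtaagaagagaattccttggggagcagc
Fut7 (chr2:25422992-25423291, plus strand): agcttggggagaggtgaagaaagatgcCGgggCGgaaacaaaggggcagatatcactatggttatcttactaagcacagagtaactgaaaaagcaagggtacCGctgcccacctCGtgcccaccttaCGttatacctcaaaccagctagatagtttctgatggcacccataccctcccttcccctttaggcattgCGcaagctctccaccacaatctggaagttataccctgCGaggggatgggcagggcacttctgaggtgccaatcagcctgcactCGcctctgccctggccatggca
The Gcnt1 window shown held 16 CpG and its other 2 windows held 2 and 3. The St3gal4 window held 31 CpG, that of Chst4 held 5, and the 2 windows of Fut7 held 8, as shown, and 1, against a median of 7 over 32851 mouse windows of this length. Of all windows 33.0% held at least as many CpG as the window shown for Gcnt1, 10.6% for St3gal4, 62.0% for Chst4 and 48.6% for Fut7. The count did not separate the enzymes by their level, and for Gcnt1 it depended on the window. The window of Chst1, which was expressed in every sample, held 1 CpG, while that of Chst2 held 34, B4galt1 26, Fut4 18 and B3gnt3 11, and the 2 windows of St3gal6 held 3 and 20.

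To ask which enzymes differed between the subsets, log2(FPKM + 1) was compared with limma in 1 fit over the 6 samples, for the 11717 genes with at least 1 FPKM in at least 2 samples, with Benjamini-Hochberg adjustment of the p-values over all of these genes. Of the 10 enzymes 8 passed this filter, and Chst4 and Fut7 did not. Each difference below is one of log2(FPKM + 1), given with its standard error (SE), and for low genes this scale shrinks the change. Between type III and type I ECs 1 enzyme, Gcnt1, passed an adjusted p of 0.05, beside 4.14% of all genes tested. The median difference of the 8 enzymes was 0.65, with a range of 0.28 to 2.2, and that of all genes was 0.08. Each of the 8 was higher in both type III samples than in both type I samples, which held for 20.7% of all genes. After the samples were scaled to a common median ratio, this held for 4 of the 8, Gcnt1, B4galt1, St3gal4 and St3gal6, and for 22.6% of all genes. These 4 were also the enzymes with an unadjusted p under 0.05, as 14.1% of all genes were. Gcnt1 passed the filter only because of its type III samples. Of the others just replicate 1 of type I, at 1.18 FPKM, reached 1 FPKM. Gcnt1 was thus tested because of the subset in which it was high, which limits what its call can show.

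Chst1 (chr2:92439864-92455409), which adds sulfate to galactose and is also active on endothelial glycans, was at 8.22 and 10.7 FPKM in type I, 8.65 and 12.9 in type II, and 12.9 and 19.7 FPKM in type III ECs. Type III samples were the highest, although the lower one equalled the higher type II sample to 3 digits. Type III and type I ECs differed by 0.71 on the log2 scale (SE 0.33; limma adjusted p = 0.38). Chst2 (chr9:95301345-95307689), a GlcNAc sulfotransferase that acts in lymph node vessels together with Chst4, was at 10.4 and 9.03, 7.98 and 10.4, and 10.8 and 14.2 FPKM in the same order, and replicate 2 of type III stood above the other 5 samples. Its log2 difference between type III and type I ECs was 0.32 (SE 0.29; limma adjusted p = 0.74). The ratio of Chst1 to Chst2 FPKM was lowest in replicate 1 of type I, at 0.788, and between 1.08 and 1.39 in the other 5 samples.

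Chst4 (chr8:112552975-112563234), the sulfotransferase most closely tied to high endothelial venules, was listed at 0 in 5 of the 6 samples. The exception was replicate 1 of type II ECs, at 0.703 FPKM, which came to an estimated 3 fragments with an interval that reached down to 0. No difference could be read at this depth. Fut7 (chr2:25278762-25281893), the fucosyltransferase that finishes the sialyl Lewis X cap, was listed at 0 in 4 samples, at 0.152 FPKM in replicate 2 of type II and at 0.499 FPKM in replicate 2 of type III ECs, each from an estimated 1 fragment or fewer. Neither gene was tested.

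Fut4 (chr9:14552903-14556566), which can add fucose to the same chain and was the only fucosyltransferase of the 2 to pass the filter, was at 3.22 and 3.17 FPKM in type I, 0.849 and 1.47 in type II, and 5.01 and 3.29 FPKM in type III ECs. Both type II samples lay below the other 4, and replicate 2 of type III lay close to the type I samples. The log2 difference was -0.97 (SE 0.36) between type II and type I ECs and 1.25 (SE 0.36) between type III and type II ECs, and limma gave adjusted p-values of 0.52 and 0.25. Between type III and type I ECs the log2 difference was 0.28 (SE 0.36; limma adjusted p = 0.84). The type II values rested on an estimated 7 and 19 fragments, against 34 to 43 in the other samples.

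Gcnt1 (chr19:17400631-17447334), the enzyme that branches core 1 into core 2 O-glycans and so opens the arm on which P-selectin ligands carry sialyl Lewis X, was at 1.18 and 0.0588 FPKM in type I, 0.762 and 0.248 in type II, and 7.49 and 4.7 FPKM in type III ECs. Both type III samples stood above the other 4, with an estimated 67 and 74 fragments against 13 or fewer. Because Gcnt1 passed the filter only through its type III samples, its call is no independent support for a difference. With that limit, Gcnt1 RNA was higher in type III than in type I ECs, with a log2 difference of 2.2 (SE 0.46; limma adjusted p = 0.031), or 4.58-fold on the FPKM + 1 scale. This call was lost without replicate 2 of type I (adjusted p = 0.19), without replicate 1 of type III (adjusted p = 0.21), without replicate 2 of type III (adjusted p = 0.075), without the filter on low values (adjusted p = 0.095) and with 0.1 in place of 1 added to the FPKM (adjusted p = 0.11). Against type II ECs the log2 difference was 2.23 (SE 0.46) and did not pass (limma adjusted p = 0.12). Between type II and type I ECs it was -0.03 (SE 0.46), with a limma adjusted p of 1.0.

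**Figure D2:**
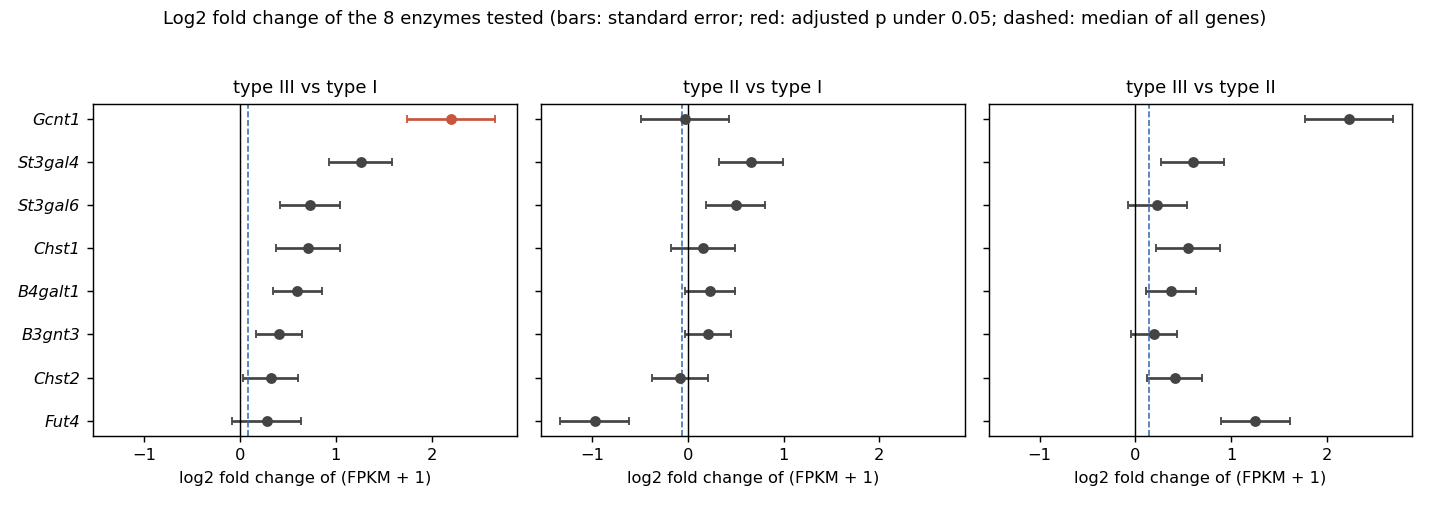
Log2 difference of FPKM + 1 (x axis) for the 8 enzymes tested (y axis) between type III and type I, type II and type I, and type III and type II ECs, with the standard error as bars, the enzyme past the threshold in red and the median of all genes tested as a dashed line. Gcnt1 had the largest difference in both comparisons with type III ECs, 2.2 and 2.23, and Fut4 lay furthest below 0 between type II and type I ECs, at -0.97.

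Leukocytes are known to express Gcnt1, and the sum of the leukocyte markers was set beside it in each sample. Replicate 1 of type III had both the highest marker sum, 609 FPKM, and the highest Gcnt1. Replicate 2 of type III, with a marker sum of 176 FPKM, had 4.7 FPKM of Gcnt1, while replicate 1 of type I, with a marker sum of 348 FPKM, had 1.18 FPKM. Replicate 1 of type II had nearly the same marker sum as replicate 2 of type III, 168 FPKM, and 0.762 FPKM of Gcnt1. The myeloid gene Lyz2 made up much of the sum, with 177 FPKM in replicate 1 of type I and 296 FPKM in replicate 1 of type III ECs, and the 3 lists behind the sum differed. The T cell markers summed to 115 and 31.0 FPKM in type I, 79.6 and 49.0 in type II, and 205 and 92.6 in type III ECs, and the T cell gene Lck was at 17.7 and 5.94, 12.2 and 10.8, and 28.0 and 20.9 FPKM, highest in both type III samples. The 4 B cell markers also had their highest sums in both type III samples, at 4.58 and 3.15 FPKM in type I, 5.19 and 0.24 in type II, and 14.6 and 8.08 in type III ECs. Ptprc, the pan-leukocyte gene of CD45, was at 10.6 and 2.88 FPKM in type I, 6.05 and 4.47 in type II, and 28.9 and 7.81 FPKM in type III ECs. Of the 22 markers only the myeloid gene Cd14 passed between type III and type I ECs, beside 4.14% of all genes tested, and S100a8 was listed at 0 in 4 samples. The part of leukocyte RNA in the Gcnt1 level of either type III sample was not tested.

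**Figure D3:**
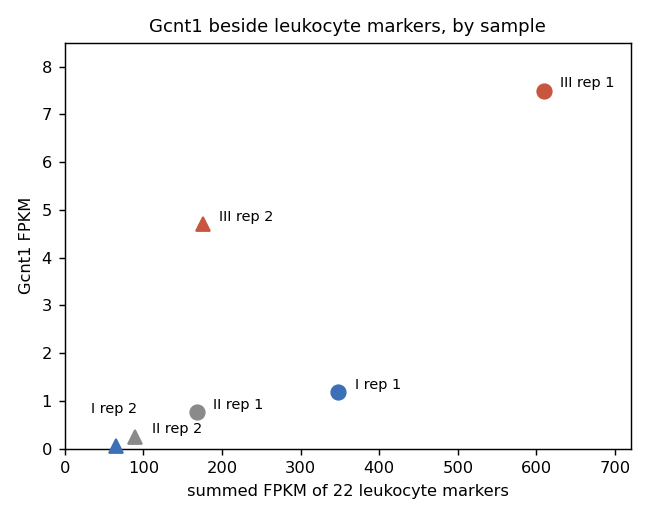
Gcnt1 FPKM (y axis) against the summed FPKM of 22 leukocyte markers (x axis) in the 6 samples, coloured by subset, with circles for replicate 1 and triangles for replicate 2. Replicate 2 of type III had a marker sum of 176 FPKM and 4.7 FPKM of Gcnt1, and replicate 1 of type I a marker sum of 348 FPKM and 1.18 FPKM of Gcnt1.

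B3gnt3 (chr8:74215618-74225699), which extends unbranched core 1 O-glycans and so offers a second arm for the cap in lymph node vessels, was the most abundant of the enzymes, at 54.0 and 45.4 FPKM in type I, 55.0 and 60.3 in type II, and 61.0 and 71.4 FPKM in type III ECs. The samples of the 3 subsets did not overlap but lay next to each other. Type III and type I ECs differed by 0.41 on the log2 scale (SE 0.24; limma adjusted p = 0.53). Gcnt1 as a share of the FPKM of Gcnt1 and B3gnt3 was 2.13% and 0.129% in type I, 1.37% and 0.41% in type II, and 10.9% and 6.17% in type III ECs, so RNA of the extension enzyme exceeded RNA of the branching enzyme in every sample. The share was higher in both type III samples than in the other 4.

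B4galt1 (chr4:40751615-40801570), which adds the galactose of the chain, was at 14.2 and 13.1 FPKM in type I, 17.6 and 14.9 in type II, and 23.6 and 19.0 FPKM in type III ECs. The 3 pairs of samples did not overlap. Between type III and type I ECs the log2 difference was 0.6 (SE 0.26; limma adjusted p = 0.35).

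St3gal4 (chr9:34854164-34924395), a sialyltransferase that adds sialic acid to the terminal galactose, was at 33.3 and 16.8 FPKM in type I, 42.2 and 34.2 in type II, and 64.5 and 52.4 FPKM in type III ECs. The subsets did not overlap, and the 2 type I samples differed from each other by more than those of the other subsets. The log2 difference between type III and type I ECs was 1.26 (SE 0.33), with a limma adjusted p of 0.081. It was 0.018 after median-ratio scaling (log2 difference 1.17), 0.02 after quantile normalization and 0.021 without replicate 1 of type I (log2 difference 1.73), so the call depended on these choices. Between type II and type I ECs the log2 difference was 0.66 (SE 0.33; limma adjusted p = 0.74), and between type III and type II ECs 0.6 (SE 0.33; limma adjusted p = 0.62). An exon of St3gal4 overlaps the antisense gene 4930581F22Rik, which was at 0.765 to 2.46 FPKM, and reads of the pair may not have been told apart, since the library kit is not stated to keep strand.

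St3gal6 (chr16:58470655-58523425), the other sialyltransferase of the cap, was at 25.0 and 14.5 FPKM in type I, 31.3 and 24.0 in type II, and 36.3 and 28.8 FPKM in type III ECs. Type III samples lay above type I samples, and type II samples overlapped both. The log2 difference between type III and type I ECs was 0.73 (SE 0.31; limma adjusted p = 0.34). The ratio of St3gal4 to St3gal6 FPKM was 1.33 and 1.16 in type I, 1.35 and 1.42 in type II, and 1.77 and 1.82 in type III ECs. St3gal4 RNA thus exceeded St3gal6 RNA in each library, and by most in the type III libraries. An exon of St3gal6 overlaps Dcbld2 on the other strand, at 2.47 to 4.06 FPKM.

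Type II ECs, which share Ly6C with type I and P-selectin with type III ECs, were compared with each. No enzyme passed an adjusted p of 0.05 in limma between type II and type I ECs, beside 0.393% of all genes tested, and 1 of 8, Fut4, had an unadjusted p under 0.05, as 7.48% of all genes had. The median log2 difference of the 8 was 0.19, against -0.06 over all genes. Both type II samples were above both type I samples for B3gnt3, B4galt1 and St3gal4, as for 13% of all genes, and below them for Fut4, as for 20.6%. Between type III and type II ECs no enzyme passed in limma, beside 0.222% of all genes, and 2 of 8, Fut4 and Gcnt1, had an unadjusted p under 0.05, as 9.99% of all genes had. The median log2 difference of the 8 was 0.48. The median of all genes was 0.14 as deposited and 0.01 after median-ratio scaling, so the FPKM of type III ECs were shifted upward against type II ECs as a whole, and the enzymes are to be read against that shift. Both type III samples were above both type II samples for 7 of the 8, as for 27.7% of all genes, and after scaling for Fut4, Gcnt1, B4galt1 and St3gal4, as for 19.9%. The comparisons share their samples and are not independent of each other. An exact permutation test of 2 samples against 2 cannot give a two-sided p below 0.33, so no single enzyme was tested that way.

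Other enzymes, transporters and donor-making genes of the same pathway were taken from a list of 88, of which 84 had a row and 66 were tested. Between type III and type I ECs 3 rose and 3 fell, beside 2.09% of all genes that rose and 2.05% that fell, and the median log2 difference of the 66 was -0.07. In limma 0 of the 66 passed between type II and type I ECs and 0 between type III and type II ECs, with 7 and 10 at an unadjusted p under 0.05, as 7.48% and 9.99% of all genes were. Of the 66, 17 had an unadjusted p under 0.05 between type III and type I ECs, as 14.1% of all genes had. The most abundant genes were those for the start of the chain (Galnt15, 47.2 FPKM over the 6 samples), tyrosine sulfation, which P-selectin ligands also need (Tpst2, 41.3 FPKM), UDP-GlcNAc supply (Uap1, 37.7 FPKM) and sialylation of core 1 (St3gal1, 27.3 FPKM). In the remaining groups the highest were Gcnt2 at 21.7 FPKM, Pofut2 at 21.5, B3gnt2 at 20.0, the sulfate donor synthase Papss2 at 18.4, St6galnac2 at 17.6, B4galt4 at 17.4, Chst7 at 13.9, the sialic acid synthesis enzyme Gne at 11.4, the core 1 chaperone gene C1galt1c1 at 6.44 and the GDP-fucose enzyme Gmds at 5.75 FPKM. Fut9 and Chst5, relatives of Fut7 and Chst4, were listed at 0 in every sample.

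B4galt6, a galactosyltransferase known for making lactosylceramide, had the largest rise in this list. It was at 0.908 and 0.591 FPKM in type I, 2.39 and 4.65 in type II, and 18.5 and 15.3 FPKM in type III ECs, with no overlap between subsets. Type III ECs exceeded type I ECs by 3.35 on the log2 scale (SE 0.36; limma adjusted p = 0.0012), and the adjusted p was at most 0.016 whichever library was left out. B4galt6 FPKM came to 0.0637 and 0.0453 of B4galt1 FPKM in type I, 0.136 and 0.312 in type II, and 0.782 and 0.805 in type III ECs. B4galt4, another family member, was at 30.7 and 20.0 FPKM in type I and 13.5 and 9.34 FPKM in type III ECs (log2 difference -1.07, SE 0.33; limma adjusted p = 0.14). The ratio of B4galt1 to B4galt4 was 0.465 and 0.654 in type I, 0.951 and 1.22 in type II, and 1.75 and 2.03 in type III ECs.

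St6gal1, which places sialic acid on galactose in a linkage that selectins do not read and so uses the same acceptor as St3gal4 and St3gal6, was at 4.36 and 3.67 FPKM in type I, 7.18 and 6.36 in type II, and 19.9 and 17.0 FPKM in type III ECs. Its subsets did not overlap. The log2 difference between type III and type I ECs was 1.95 (SE 0.28; limma adjusted p = 0.0054), and only without replicate 1 of type III was the call lost (adjusted p = 0.054). The ratio of St3gal4 to St6gal1 FPKM was 7.63 and 4.57 in type I, 5.88 and 5.37 in type II, and 3.24 and 3.08 in type III ECs, so St3gal4 RNA stayed the higher of the pair in every library while its excess was smallest in type III ECs.

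Slc26a2, which imports the sulfate from which the sulfate donor is made, was at 2.09 and 1.32 FPKM in type I, 6.54 and 5.5 in type II, and 9.23 and 6.36 FPKM in type III ECs. The type II and type III samples overlapped and all 4 lay above type I. The log2 difference between type III and type I ECs was 1.7 (SE 0.34; limma adjusted p = 0.023), and the call was lost whichever of the 4 libraries compared was left out (adjusted p between 0.056 and 0.19) and without the filter on low values (adjusted p = 0.077). Between type II and type I ECs the log2 difference was 1.39 (SE 0.34; limma adjusted p = 0.18).

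The 3 genes that fell were a tyrosine sulfotransferase and a pair of sialyltransferases that do not make the cap itself. Tpst1, the tyrosine sulfotransferase, was at 34.9 and 22.9 FPKM in type I, 22.5 and 9.73 in type II, and 8.19 and 4.89 FPKM in type III ECs. Type III and type I ECs differed by -1.99 on the log2 scale (SE 0.42; limma adjusted p = 0.031), and the call was lost whichever of the 4 libraries compared was left out (adjusted p between 0.068 and 0.16), without the filter on low values (adjusted p = 0.11) and without the variance trend (adjusted p = 0.059). St6galnac2, which sialylates the first sugar of the O-glycan, was at 27.1 and 24.3, 20.7 and 17.2, and 9.75 and 6.64 FPKM, a log2 difference of -1.56 between type III and type I ECs (SE 0.28; limma adjusted p = 0.015). Its call was lost without replicate 1 of type I (adjusted p = 0.073), replicate 2 of type I (adjusted p = 0.066) or replicate 2 of type III (adjusted p = 0.12). St8sia4, a polysialyltransferase, was at 16.3 and 17.6, 9.2 and 10.4, and 7.55 and 6.49 FPKM, a log2 difference of -1.17 (SE 0.27; limma adjusted p = 0.046), a call that was lost whichever of the 6 libraries was left out (adjusted p between 0.093 and 0.21), with 0.1 added to the FPKM (adjusted p = 0.051), without the filter (adjusted p = 0.07), without the trend (adjusted p = 0.071) and in a fit to the 4 samples compared (adjusted p = 0.098). In all 3 genes, which were picked by this test, both type III samples lay below the other 4. Of all 11717 genes tested, both type III samples lay below both type I samples for 2009. They lay below both type II samples for 1559. After median-ratio scaling the first held for 22.9% and the second for 20.1% of all genes. The share of genes below all 4 at once was not counted, so the position of the 3 genes is no result about them.

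**Figure D4:**
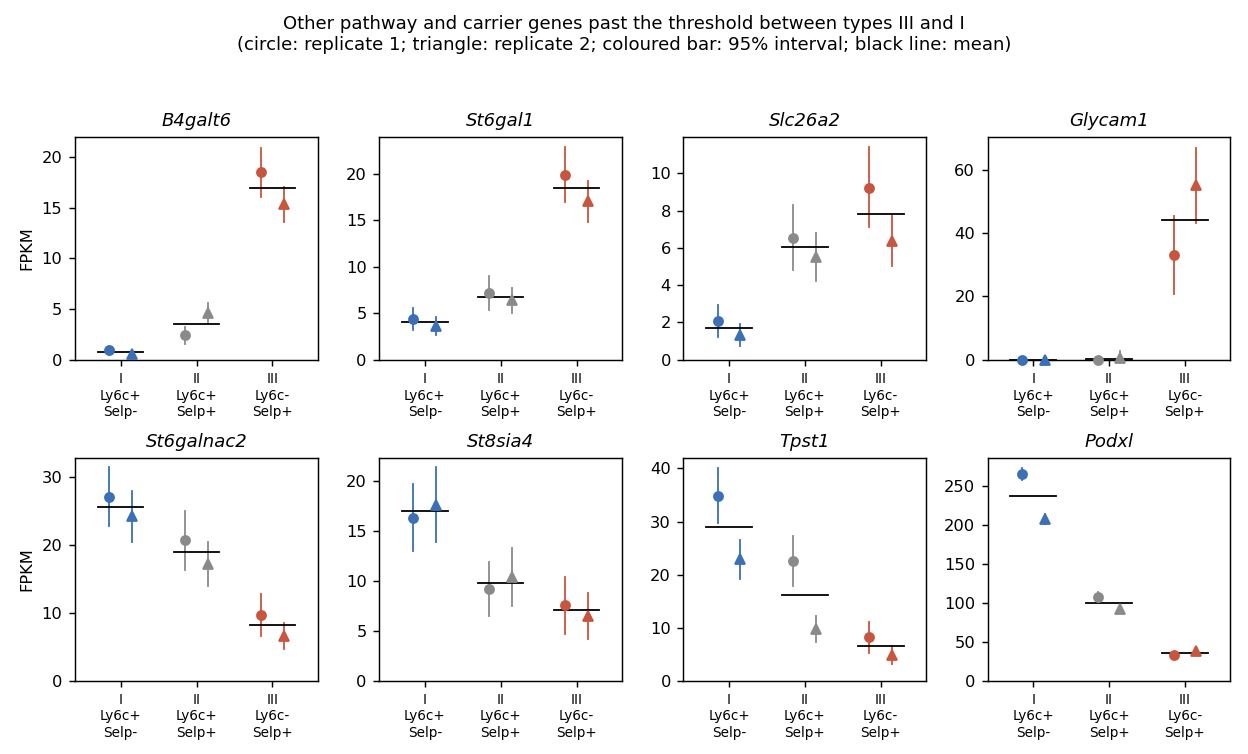
FPKM (y axis, its own scale in each panel) of the 6 other pathway genes and the 2 carrier proteins past the threshold between type III and type I ECs, in type I, II and III ECs (x axis), with a circle for replicate 1, a triangle for replicate 2, the deposited 95% interval as a coloured bar and the mean as a black line. B4galt6, St6gal1, Slc26a2 and Glycam1 had their highest mean in type III ECs, and St6galnac2, St8sia4, Tpst1 and Podxl theirs in type I ECs.

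Of 7 genes for sialomucins and other possible carriers of the cap, 6 were tested, and 1 rose and 1 fell between type III and type I ECs, beside 2.09% and 2.05% of all genes. Glycam1, a secreted sialomucin of high endothelial venules, was listed at 0 in both type I samples and in replicate 1 of type II, and at 0.635 FPKM in replicate 2 of type II, against 33.1 and 55.0 FPKM in type III ECs. It passed the filter through its type III samples alone and so had to differ. It was higher in type III than in type I ECs (limma adjusted p = 0.00015) and than in type II ECs (limma adjusted p = 0.0026, and 0.11 without the filter on low values), and no fold is given against samples at 0. Podxl, a sialomucin of the vessel surface, went the other way, with 266 and 208 FPKM in type I, 108 and 91.9 in type II, and 33.6 and 38.5 FPKM in type III ECs (log2 difference between type III and type I ECs -2.67, SE 0.24; limma adjusted p = 0.00056). Cd34, the most abundant of the carriers, was at 328 and 211, 287 and 239, and 332 and 253 FPKM, and its subsets overlapped. Emcn was at 139 to 243 FPKM, Cd164 at 16.8 to 65.2 FPKM and Selplg, the gene of the P-selectin ligand of leukocytes, at 3.36 to 20.4 FPKM, and none of these 3 passed. Madcam1, the mucosal addressin, was at 0.524 FPKM in replicate 1 of type I and 1.1 FPKM in replicate 1 of type III ECs, was listed at 0 in the other 4 samples and was not tested.

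Some markers of other cells also differed between the subsets, and those of the same list did not always go the same way. Of 7 pericyte and smooth muscle genes, whose FPKM summed to 491 and 195 in type I, 518 and 394 in type II, and 165 and 227 in type III ECs, Pdgfrb and Kcnj8 were lower and Tagln was higher in type III than in type I ECs, with Kcnj8 listed at 0 in replicate 1 of type III. Over all genes 2.05% were lower and 2.09% higher. Rgs5, a pericyte gene, was at 346 and 114, 284 and 137, and 48.6 and 45.4 FPKM, and passed in none of the 3 comparisons. Acta2 was at 13.7 and 7.53, 29.5 and 37.0, and 16.9 and 33.8 FPKM. Myh11 was at 17.7 and 9.4, 26.7 and 40.8, and 14.8 and 32.9 FPKM, so neither was lowest in type III ECs. The part of pericyte RNA in the lower Tpst1, St6galnac2, St8sia4 and Podxl of type III ECs was not tested. Erythroid genes summed to 84.3 and 140 FPKM in type I, 51.4 and 26.4 in type II, and 0 and 10.9 FPKM in type III ECs, with each at 0 in replicate 1 of type III. Of the 4 tested 2 were lower in type III than in type I ECs, beside 2.05% of all genes. The type I samples differed, with Hbb-b1 at 0.0642 and 71.1 FPKM. The part of erythroid RNA in the differences given here was not tested. Of the lymphatic endothelial markers none passed, beside 4.14% of all genes between type III and type I ECs. Prox1 was at 0.324 and 0.519, 0.534 and 1.09, and 3.05 and 3.22 FPKM. Lyve1 was at 12.4 and 1.07 FPKM in type III ECs and at 0.112 FPKM or less elsewhere. Flt4 went the other way, at 20.0 and 16.7, 7.21 and 7.0, and 9.45 and 7.15 FPKM, and Pdpn overlapped. The part of lymphatic RNA in these differences was not tested. Of the 6 endothelial markers none passed in any of the 3 comparisons, and their sum lay between 1600 and 1940 FPKM.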

How the data were processed

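RNA of 6 samples of sorted mouse thymic ECs, 2 for each of 3 subsets, was analysed. According to the submitters' processing notes the tools were CASAVA 1.8, TopHat2 2.0.10, Cufflinks 2.1.1 and Cuffdiff, with the mouse build mm9. The authors deposited FPKM per gene and library with the bounds of a 95% interval, also in FPKM, and replicates were not pooled. The gene annotation is not given in the sources used here. Fragments were estimated from the interval as if it held counting error only. Spike-ins and a reporter were not used, and no scaling was added.

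Genes with at least 1 FPKM in at least 2 samples were tested as log2(FPKM + 1) in limma 3.58.1 (R 4.3.3), with a mean per subset, a trend of the variance on expression and Benjamini-Hochberg adjustment over 11717 genes (threshold 0.05). The study used Cuffdiff, which needs reads. Its list of genes that differed between type I and type III ECs holds Gcnt1. It also holds St3gal4, B4galt4, Galnt16, Galnt18 and Fut2, which did not pass in the main fit here. St8sia4, which passed here, is absent from that list. The code was tested on simulated data with a capped spread, in which only large changes in genes of higher level were planted. Low genes such as Gcnt1 and small differences were not covered. The enzymes, the pathway, carrier and marker lists and the tests were chosen with earlier results of these data known. Named were the 10 enzymes, all carriers, each other pathway gene past the threshold and the most abundant gene of each pathway group. Fut9 and Chst5 and the marker genes named were picked after their values were seen. Alternatives were another pseudocount, no filter and a stricter filter, median-ratio scaling and quantile normalization, a block for the replicate number, a fit with no variance trend, a fit to the 4 samples of each comparison, and the omission of each library.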

Additional observations from a re-analysis of the deposited data

How the results depend on the processing

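With 2 libraries a subset, the number of genes past the threshold changed with the processing. Of 666 differences recomputed for the named genes, 609 kept their direction and side of the threshold, 31 no longer passed, 17 newly passed and 9 changed sign. The filters, the replicate block, the fit without trend and the fit to the samples compared leave the difference itself unchanged. So does the omission of a library of the subset not compared. Direction could not change in these alternatives, and the number that kept it is no measure of stability. A difference of 0.0, for Glycam1 between type II and type I ECs, was counted as kept. The 9 that changed sign were between type II and type I ECs, at differences near 0. Chst1 came to -0.01 without type I replicate 1 and -0.11 without type II replicate 2, Chst2 to 0.01 without type I replicate 1 and 0.09 without type II replicate 1, and Gcnt1 to 0.28 with a pseudocount of 0.1, 0.03 with median-ratio scaling, 0.07 with quantile normalization, 0.49 without type I replicate 1 and 0.22 without type II replicate 2. With each library left out in turn they ranged from -0.11 to 0.42 (Chst1), -0.25 to 0.09 (Chst2) and -0.55 to 0.49 (Gcnt1). A filter of 5 FPKM in 2 samples leaves out Gcnt1 and Fut4, so no value could be had for them.

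Enzymes past the threshold between type III and type I ECs numbered 0 with a pseudocount of 0.1, with no filter and with the filter of 5 FPKM, 2 with median-ratio scaling, quantile normalization or the replicate block, and 0 to 2 with a library left out, and between type III and type II ECs 1 with the replicate block. Other pathway genes numbered 3 with no filter, 12 with the replicate block and 2 to 5 with a library left out, in place of 6. Over all genes, the 485 between type III and type I ECs became 317 with no filter, 971 with the replicate block and 209 to 404 with a library left out. The 46 between type II and type I ECs (38 higher, 8 lower) became 12 with no filter, 97 with median-ratio scaling (68 higher, 29 lower), 103 with quantile normalization (73 and 30), 183 with the replicate block (99 and 84), 15 without the trend, 29 with only the samples compared and 12 to 33 with a library left out. The 26 between type III and type II ECs (11 higher, 15 lower) became 0 with no filter, where limma gave 1354 of 16624 genes an unadjusted p under 0.05, 85 with median-ratio scaling (23 and 62), 90 with quantile normalization (22 and 68), 229 with the replicate block (124 and 105), 10 without the trend, 7 with only the samples compared and 2 to 14 with a library left out. The cause of these shifts was not tested. Where a library was left out, the lone sample of its subset was assumed to vary like the other subsets.

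Deviations of samples with the same replicate number from their subset means correlated over genes by 0.199 between type I and II, 0.306 between type I and III, and 0.18 between type II and III ECs. The labels do not say what a number shares, so the block stayed an alternative. Under it limma's adjusted p was 0.009 for St3gal4 between type III and type I ECs, 0.023 for Gcnt1 between type III and type II ECs and 0.042 for Slc26a2 between type II and type I ECs. Between type III and type II ECs it was 0.027 for B4galt6, 0.03 for St6gal1, 0.037 for St6galnac2 and 0.014 for Podxl, and Tpst1 came just under the threshold, and Podxl had 0.023 between type II and type I ECs. Among the other pathway genes, B4galt4, Galnt16 and Uap1 newly passed between type III and type I ECs with the block and with either scaling. Fut2, Galnt18 and St8sia6 newly passed with the block but with neither scaling. Of these genes Uap1 was higher in type III ECs and the others were lower. Low depth limits Chst4, Fut7 and Gcnt1 most, since 3 fragments correspond to a median of 0.356 to 0.602 FPKM.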
